A study of Ixodes ricinus with 9 samples.

Results

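The ferritin genes are the iron storage genes of the tick midgut transcriptome. They were taken as every gene of the count table whose annotation carries the Pfam ferritin-like domain, and 2 of 28510 genes met this rule, HPB47_026848 and HPB47_028185. The study injected unfed adult female Ixodes ricinus, a hard tick of a laboratory colony, with double-stranded RNA (dsRNA) to silence antigen p23 or metalloprotease, or with dsRNA of green fluorescent protein (GFP), a sequence unrelated to the tick, as the control. All ticks were then fed on bovine blood through an artificial membrane, and midguts were dissected on feeding day 7. A library was made from the midguts of 3 ticks and a group from 3 libraries, so 9 ticks stand behind each of the 3 groups and a value belongs to a pool and not to a single tick. Per the study's RT-qPCR, the metalloprotease transcript was only partly silenced in the midgut, and neither silenced gene is paired with a row of the counts in the sources used here.

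Ferritin is a hollow protein shell that takes up ferrous iron, oxidizes it and keeps it as a mineral core in which it cannot take part in damaging reactions with oxygen. A tick swallows a blood meal many times its own weight and digests hemoglobin inside midgut cells, so this tissue meets large amounts of heme and iron. Hard ticks are known to have an intracellular ferritin, whose translation is repressed by an iron regulatory protein when iron is scarce, and a secreted ferritin that carries iron from the midgut to other organs. Reads were placed on the BIME_Iper_1.3 assembly of Ixodes persulcatus, a close relative, and the annotation used here does not say which of the 2 genes is the intracellular and which the secreted form.

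HPB47_026848 lies on the plus strand of scaffold JABSTQ010009776.1, from base 1965963 to base 1988067. Its gene model has a coding length of 519 bases, enough for 172 residues and a stop codon, so that most of its span of 22105 bases lies outside coding exons. Its best Swiss-Prot match was the soma ferritin of the pond snail Lymnaea stagnalis, a cytosolic ferritin. HPB47_028185 lies on the plus strand of scaffold JABSTQ010009955.1, from base 968034 to base 975929, with a coding length of 504 bases for 167 residues and a span of 7896 bases. Its best match was Ferritin-1, chloroplastic, of maize, and a match to a plastid protein names the nearest curated sequence and not the place of the protein in a tick cell. Another gene, HPB47_012968, was also matched to soma ferritin, but its annotated domain is an immunoglobulin V-set domain and not ferritin-like. It was therefore not counted as ferritin, and it had 7 counts over the 9 libraries together.

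Counts assigned to genes summed to 3303358 to 3636541 per antigen p23 library, 3484152 to 9430607 per metalloprotease library and 3306565 to 4681133 per GFP control library. The libraries were sequenced far deeper than these sums, which hold only the small part of the reads that was counted in a gene of the other species. Antigen p23 replicates 1 and 2 stood apart with 7291 and 6294 genes detected, against 9136 to 10988 in the other 7 libraries, so the antigen p23 results are also given with replicate 3 alone. Of 26 genes for digestive midgut proteases (cathepsins and legumains), 14 were detected and 12 were at 0 in all libraries, and 5 of 6 salivary gland markers were at 0. The 26 midgut genes summed to 2531 to 4962 CPM (counts scaled to a common library size) in the antigen p23 group, 1568 to 2800 CPM in the metalloprotease group and 1625 to 2844 CPM in the GFP control group.

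Both ferritin genes were among the most abundant transcripts of the midgut in every library. To compare genes with each other, CPM were divided by the coding length in kilobases (kb). HPB47_026848 averaged 5799 CPM per kb over the 9 libraries, the 21st highest of 28510 genes, and ranked between 20 and 26 in the single libraries. HPB47_028185 averaged 2309 CPM per kb, the 64th highest, and ranked between 53 and 96. The 2 genes together took 0.413% to 0.485% of all counts in the antigen p23 libraries, 0.372% to 0.499% in the metalloprotease libraries and 0.345% to 0.419% in the GFP control libraries. The most abundant of the 26 listed midgut protease genes, the cathepsin L match HPB47_012847, reached 976 ± 505 CPM per kb (SD, n = 9) and stayed below both ferritin means. Outside that list, the astacin-like metalloprotease match HPB47_024456 averaged 2441 CPM per kb, above HPB47_028185.

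In raw counts, HPB47_026848 had 12571, 10518 and 10062 in antigen p23 replicates 1 to 3, with 10686, 9746 and 34837 in metalloprotease replicates 1 to 3 and 10361, 12607 and 9189 in GFP control replicates 1 to 3. HPB47_028185 had 5075, 3890 and 3607 raw counts in antigen p23 replicates 1 to 3, with 3811, 3749 and 12216 in metalloprotease replicates 1 to 3 and 4689, 3522 and 4662 in GFP control replicates 1 to 3. At 3522 counts or more per library, counting error was small beside the spread between pools. The high counts of metalloprotease replicate 3 came with its total of 9430607 counts, the largest of the series.

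After scaling by library total and the trimmed mean of M values (TMM, a factor per library), HPB47_026848 stood at 4355, 3118 and 3181 CPM in the antigen p23 libraries, at 2348, 2859 and 3754 CPM in the metalloprotease libraries and at 2441, 2145 and 2884 CPM in the GFP control libraries. Antigen p23 replicate 1 was the highest of the 9 libraries and GFP control replicate 2 the lowest. The group means were 3551 ± 697 CPM with antigen p23 silenced, 2987 ± 712 CPM with metalloprotease silenced and 2490.0 ± 372 CPM in the GFP control (SD, n = 3 each).

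**Figure D1:**
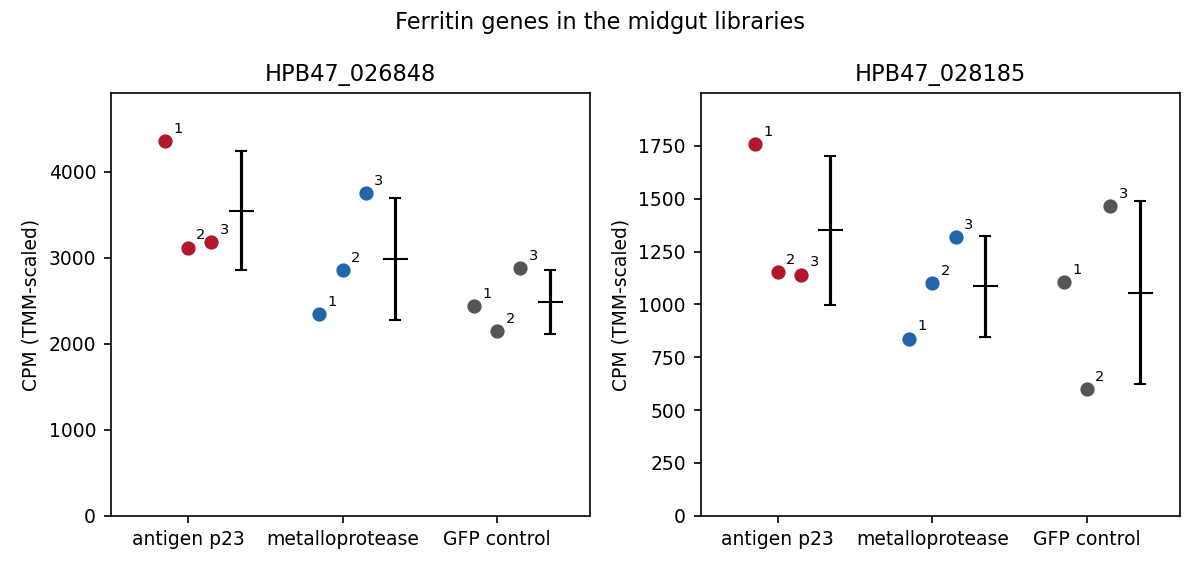
TMM-scaled CPM (vertical axes from 0) of the ferritin genes HPB47_026848 (left) and HPB47_028185 (right) in each library, with the replicate number beside each point and the mean and SD of each group of 3 libraries beside the points. All 3 antigen p23 libraries lie above the 3 GFP control libraries for HPB47_026848 (3118 CPM and more against 2884 CPM and less), while the groups of HPB47_028185 overlap.

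For HPB47_026848, all 3 antigen p23 libraries exceeded all 3 GFP control libraries, the lowest antigen p23 library at 3118 CPM against the highest GFP control library at 2884 CPM. The same separation held with library totals alone and with the size factors of DESeq2. It was 1 of 2 ferritin genes whose groups did not overlap, where 11.4% of the 6381 genes tested in this comparison had groups that did not overlap in either direction. The metalloprotease libraries overlapped with both other groups. Which library was highest depended on the scaling, and with library totals alone it was metalloprotease replicate 3 for HPB47_026848 (3694 CPM, against 3457 CPM in antigen p23 replicate 1), with GFP control replicate 1 the lowest (2436 CPM).

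HPB47_028185 stood at 1758, 1153 and 1140 CPM in the antigen p23 libraries, at 838, 1100 and 1317 CPM in the metalloprotease libraries and at 1105, 599 and 1463 CPM in the GFP control libraries. The highest library was again antigen p23 replicate 1 and the lowest again GFP control replicate 2, and the 3 groups overlapped. With library totals alone GFP control replicate 3 was the highest (1410 CPM), just above antigen p23 replicate 1 (1396 CPM). The TMM-scaled means were 1351 ± 353 CPM with antigen p23 silenced, 1085 ± 240 CPM with metalloprotease silenced and 1056 ± 434 CPM in the GFP control (SD, n = 3 each). The means of both genes thus took the order antigen p23, metalloprotease, GFP control, but for each gene every step between neighbors in that order was smaller than the SD of at least 1 of the groups concerned.

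The first question was whether silencing antigen p23, a salivary and midgut protein linked to blood feeding, changed ferritin transcripts. Neither ferritin gene passed the test against the GFP control. HPB47_026848 was 1.42-fold higher in the antigen p23 group, with a 95% interval of 0.920-fold to 2.19-fold (log2 fold change 0.50, SE 0.28, adjusted p = 0.964 by edgeR's quasi-likelihood test with Benjamini-Hochberg adjustment). HPB47_028185 had a log2 fold change of 0.35 (SE 0.36, 95% interval −0.46 to 1.17, edgeR adjusted p = 0.964).

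The test called 0 of the 2 ferritin genes and 0% of the 6381 genes tested, and DESeq2 called 0 of the 2 ferritin genes and 0.05% of 12001 genes. The study, also with DESeq2 and an adjusted threshold of 0.05, reported many more genes for each knockdown against the GFP control. The source of this difference was not tested. Before adjustment, 0 of the 2 ferritin genes and 3.26% of all genes tested had an edgeR p of 0.05 or less. The unadjusted edgeR p of HPB47_026848 was 0.101, the 553rd smallest of the 6381. The median log2 fold change of all tested genes was −0.10, so that relative to this median the ferritin genes stood at 0.60 and 0.45. With library totals in place of TMM the median of all genes moved by −0.24, and the ferritin genes had log2 fold changes of 0.26 and 0.14, or 0.60 and 0.47 relative to the median.

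Leaving out antigen p23 replicate 1, the library with the highest TMM-scaled ferritin levels, gave log2 fold changes of 0.33 for HPB47_026848 and 0.11 for HPB47_028185. With antigen p23 replicate 3 alone against the GFP control they were 0.35 and 0.11, a fit that takes the lone library to vary like the control. Without GFP control replicate 2, the value of HPB47_028185 was 0.09, against 0.43 for HPB47_026848. GFP control replicate 2 was also the lowest of its group for the summed midgut protease genes (1625 CPM, against 2844 and 2250 CPM in replicates 1 and 3) and for 4 muscle genes (1559 CPM, against 2549 and 2125 CPM), and the 4 muscle genes ran from 2298 to 3101 CPM in the antigen p23 libraries. Replicate 2 of the GFP control was the lowest of its group for the 12 vitellogenin-type genes too (23465 CPM, against 73316 and 88071 CPM). The same held for neuron genes (536 CPM, against 726 and 655 CPM). It was not the lowest for hemocyte genes (49.0 CPM, against 42.4 and 54.6 CPM) or cuticle genes (1538 CPM, against 2313 and 1039 CPM). Nor was it for salivary gland genes (1.19 CPM, against 0 and 0 CPM). All these levels are TMM-scaled. GFP control replicate 2 had the largest TMM factor of the series (1.26), which lowers its scaled levels, so its place in the order can depend on the scaling. Antigen p23 replicate 1 had the smallest factor (0.794), which raises its scaled levels. The part of these levels in the ferritin values was not tested. In RNA from whole midguts, fewer cells of a type and less RNA per cell cannot be told apart.

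Silencing metalloprotease, a protein known from tick saliva and midgut, was compared with the GFP control in the same way. HPB47_026848 had a log2 fold change of 0.26 (SE 0.29, 95% interval −0.41 to 0.93, edgeR adjusted p = 1.00) and HPB47_028185 one of 0.04 (SE 0.37, 95% interval −0.81 to 0.90, edgeR adjusted p = 1.00). The test called 0 of the 2 ferritin genes and 0% of 6786 genes, and at an unadjusted p of 0.05 or less it held 0 of the 2 and 1.43% of all genes tested. DESeq2 called 0 of the 2 and 0% of 12652 genes. Neither ferritin gene had groups that did not overlap, against 5.57% of the genes tested. Both values leaned on metalloprotease replicate 3, without which HPB47_026848 stood at 0.06. The small value of HPB47_028185 turned negative, to −0.12, without metalloprotease replicate 3 and to −0.23 without GFP control replicate 2.

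Between the 2 knockdowns, HPB47_026848 had a log2 fold change of 0.25 for antigen p23 over metalloprotease (SE 0.29, 95% interval −0.41 to 0.92, edgeR adjusted p = 0.998). HPB47_028185 had one of 0.32 (SE 0.30, 95% interval −0.36 to 1.00, edgeR adjusted p = 0.998). The test called 0 of the 2 ferritin genes and 0% of 6383 genes, with 0 of the 2 and 2.57% of all genes at an unadjusted p of 0.05 or less, and DESeq2 called 0 of the 2 and 0.175% of 11992 genes. Both genes overlapped between the groups, where 8.73% of the genes tested did not. Without antigen p23 replicate 1 the log2 fold changes were 0.06 and 0.07, and with antigen p23 replicate 3 alone they were 0.08 and 0.06. All 3 comparisons share libraries, and the upper ends of the 6 intervals ran from 1.87-fold to 2.25-fold higher.

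**Figure D2:**
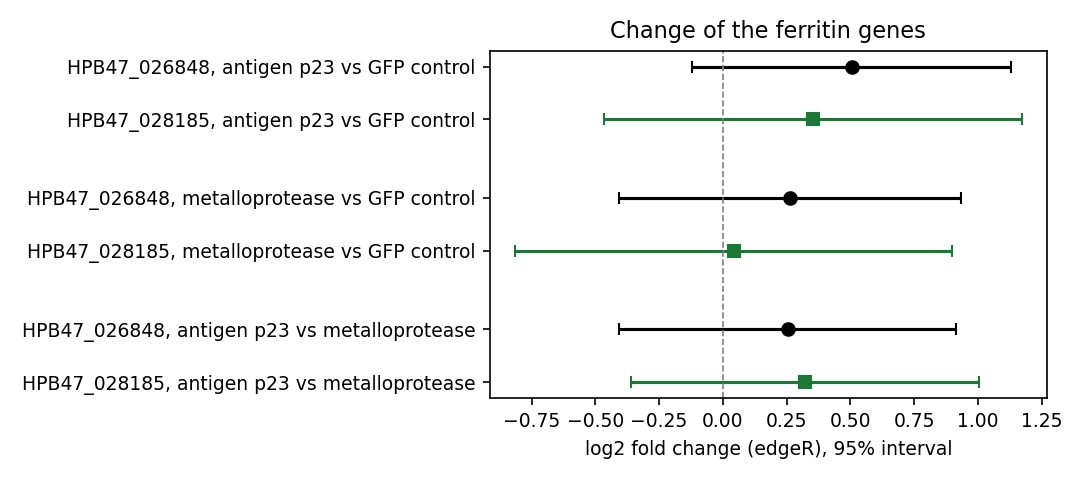
Log2 fold change by edgeR (horizontal axis, points) with its 95% interval (bars) of HPB47_026848 (black circles) and HPB47_028185 (green squares) in each comparison, the first-named group over the second. All 6 points lie above 0, the highest at 0.50 and the lowest at 0.04, and all 6 intervals cross 0.

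The ratio between the 2 ferritin genes, in CPM per kb, was steadier than their levels in the knockdown groups. HPB47_026848 exceeded HPB47_028185 by 2.41, 2.63 and 2.71 times in the antigen p23 libraries, by 2.72, 2.52 and 2.77 times in the metalloprotease libraries and by 2.15, 3.48 and 1.91 times in the GFP control libraries. The means were 2.58 ± 0.157, 2.67 ± 0.130 and 2.51 ± 0.843 in this order of groups (SD, n = 3 each), so the GFP control pools spread most and hold both the highest and the lowest ratio. HPB47_026848 was the more abundant gene in all 9 libraries.

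The 2 genes varied together across libraries, with Pearson's r of 0.85 between their log2 CPM over 9 libraries. It was 0.86 after the group means were taken out and 0.86 without metalloprotease replicate 3. The points share their library, its depth and its scaling, and HPB47_028185 ranked only 93 among 6923 genes by its r with HPB47_026848.

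Among the 1321 genes with a mean of at least 100 CPM, HPB47_026848 was one of the steadier ones. Its log2 CPM had an SD of 0.326 over the 9 libraries, against a median of 0.424, and 26.9% of these genes had a lower SD. HPB47_028185 had an SD of 0.450, with 54.6% of the genes lower. Within groups the SDs were 0.280 for HPB47_026848 and 0.472 for HPB47_028185.

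**Figure D3:**
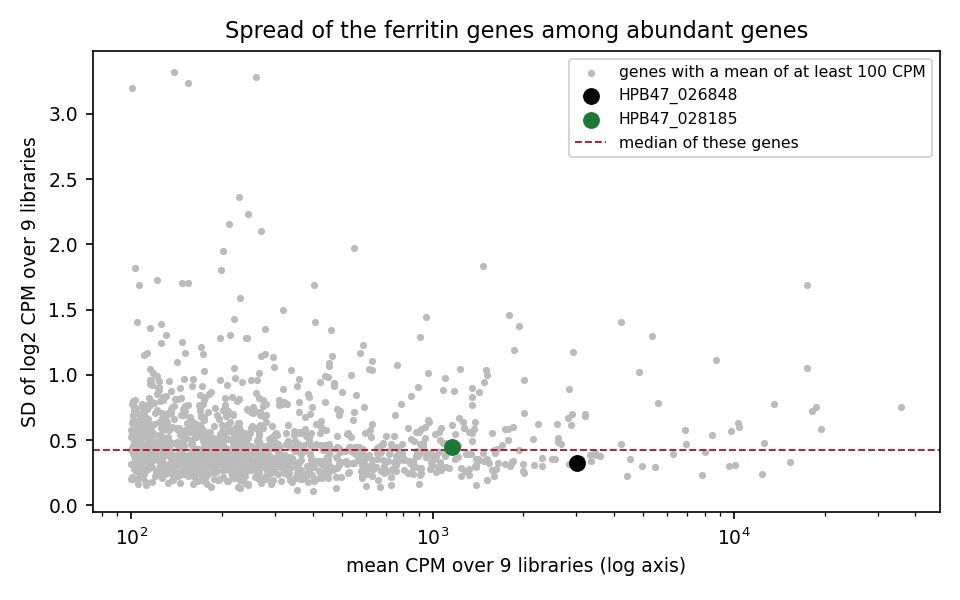
SD of log2 CPM over 9 libraries (vertical axis) against mean CPM (horizontal log axis) of the 1321 genes with a mean of at least 100 CPM (grey), with the median SD as a dashed line. HPB47_026848 (black, 0.326) lies under the median of 0.424 and HPB47_028185 (green, 0.450) close to it.

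The genes with the most similar profiles were of different kinds for the 2 ferritins. For HPB47_026848 they were the elongation factor 1-gamma match HPB47_021698 (r = 0.97), which takes part in protein synthesis, the 40S ribosomal protein S11 match HPB47_000080 (r = 0.97) and HPB47_021406 (r = 0.97), which has a bZIP transcription factor domain and no Swiss-Prot match. For HPB47_028185 they were the respiratory chain subunits cytochrome c oxidase subunit 4 (HPB47_007156, r = 0.96) and cytochrome b-c1 subunit 7 (HPB47_021224, r = 0.96), followed by cytoplasmic malate dehydrogenase (HPB47_004804, r = 0.95). Each r is over 9 libraries that share depth and scaling, and these are the 3 closest of 6923 genes in each case.

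The genes around the ferritins were at 0 or low in the midgut. The 2 nearest genes on either side of HPB47_026848, among them a salivary cystatin-L2 match 115226 bases upstream and a lysosomal alpha-glucosidase match 40546 bases downstream, had 0 counts in all libraries. The nearest genes of HPB47_028185 were HPB47_028184 at a distance of 14319 bases, with a mean of 0.0189 CPM, and HPB47_028186 at 10113 bases, with a mean of 11.7 CPM.

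To set ferritin in its pathway, 64 further genes of iron and heme handling were examined in 6 lists, of which 42 passed the filter on low counts over the 9 libraries. No listed gene passed in any comparison with edgeR or with DESeq2 as run here. Over all genes tested, edgeR called 0% in each comparison. DESeq2 called 0.05% with antigen p23 silenced and 0% with metalloprotease silenced, each against the GFP control, and 0.175% between the knockdowns. Without antigen p23 replicate 1, edgeR called no listed gene and no gene outside the lists. The study's own test of gene sets reported an iron homeostasis term as raised with metalloprotease silenced. No test of gene sets was run here, so the calls of single genes do not address that result. Only 1 of the 64, the vitellogenin match HPB47_012779 (2712 CPM per kb), had a higher mean per kb than HPB47_028185, and none exceeded HPB47_026848.

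**Figure D4:**
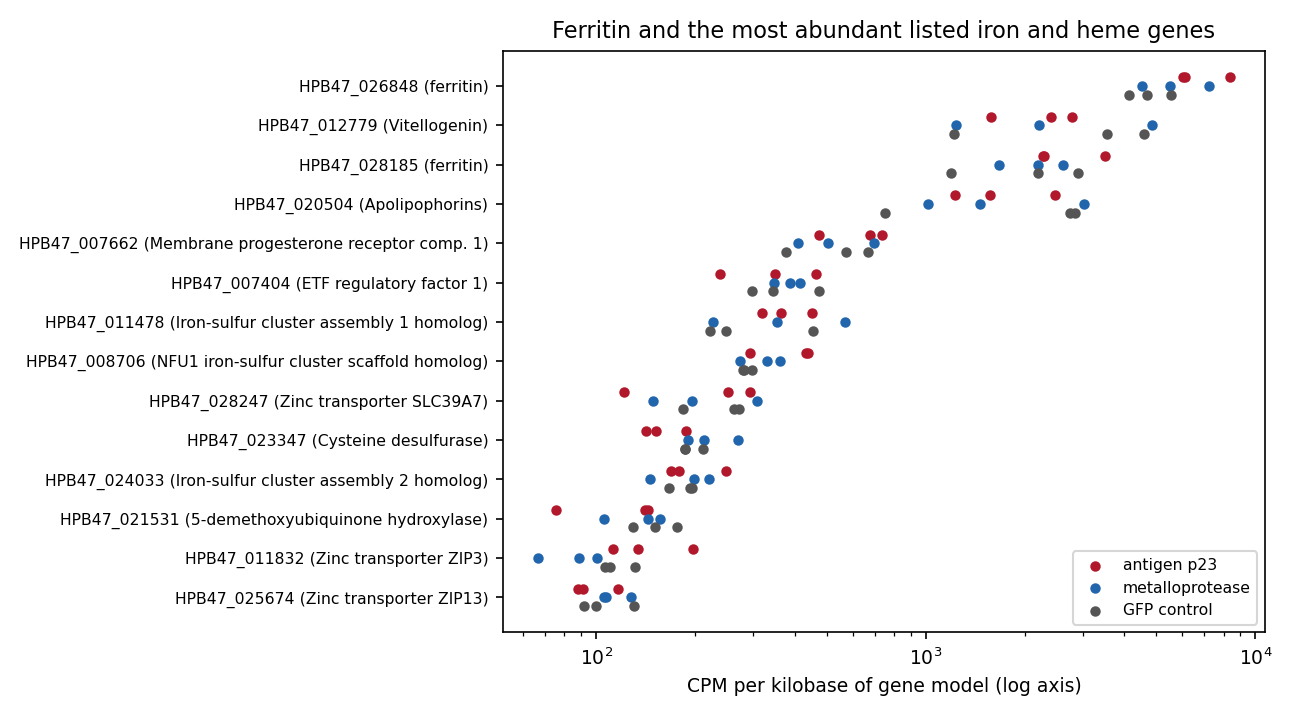
CPM per kb of coding length (horizontal log axis) of both ferritin genes and the most abundant listed iron and heme genes, 1 point per library colored by group. The ferritin gene HPB47_026848 lies highest in mean at 5799 CPM per kb, and vitellogenin (2712 CPM per kb) and apolipophorin (1898 CPM per kb) lie near HPB47_028185 (2309 CPM per kb).

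Iron regulatory protein 1 is cytoplasmic aconitase without its iron-sulfur cluster, and in that form it binds ferritin mRNA and holds back its translation. The gene matched to it, HPB47_011204, had 368, 245 and 203 CPM in the antigen p23 libraries, 184, 138 and 183 CPM in the metalloprotease libraries and 130, 204 and 197 CPM in the GFP control libraries. Its antigen p23 values reached higher than those of the control but overlapped with them in replicate 3, at 203 CPM against 204 CPM. The log2 fold change was 0.61 for antigen p23 over the GFP control (SE 0.34, edgeR adjusted p = 0.964), −0.07 for metalloprotease over the GFP control (SE 0.30, edgeR adjusted p = 1.00) and 0.70 for antigen p23 over metalloprotease (SE 0.33, edgeR adjusted p = 0.998). Without antigen p23 replicate 1, the values of antigen p23 over the GFP control and over metalloprotease were 0.32 and 0.40, and with antigen p23 replicate 3 alone they were 0.20 and 0.26. The other aconitase gene, HPB47_009387, matched to the mitochondrial enzyme, had 2 counts in all and was not tested.

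Iron transport held 23 genes, of which 15 were tested against the GFP control with antigen p23 silenced, 5 with a positive and 10 with a negative log2 fold change and a median of −0.13, beside −0.10 over all genes. With metalloprotease silenced 7 were positive and 8 negative with a median of −0.11, beside −0.00 over all genes. Between the knockdowns 7 were positive and 8 negative with a median of −0.20, beside −0.07 over all genes. With antigen p23 replicate 3 alone the medians were 0.11 over the GFP control and 0.06 over metalloprotease, of the opposite sign. Of the list, 16 genes are ZIP transporters, a family that carries zinc and in some members iron into the cytosol.

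The most abundant transporters were the zinc transporter SLC39A7 match HPB47_028247, with 265 ± 107 CPM in the antigen p23 group, 259 ± 97.3 CPM in the metalloprotease group and 285 ± 57.1 CPM in the GFP control, and the ZIP3 and ZIP13 matches. ZIP13 is the family member that in Drosophila moves iron into the secretory pathway, where secreted ferritin is loaded. Its match HPB47_025674 had 102 ± 15.9, 117 ± 13.0 and 111 ± 21.0 CPM in the antigen p23, metalloprotease and GFP control groups (SD, n = 3 each), and the means differed by no more than the largest SD.

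The ZIP3 match HPB47_011832 was the only listed gene with an unadjusted edgeR p under 0.05, for antigen p23 over metalloprotease. In that comparison, 2.57% of the 6383 genes tested had an unadjusted edgeR p of 0.05 or less. HPB47_011832 had 138 ± 40.9 CPM with antigen p23 silenced, 79.9 ± 16.4 CPM with metalloprotease silenced and 108 ± 12.5 CPM in the GFP control (SD, n = 3 each). Its log2 fold change for antigen p23 over metalloprotease was 0.80 (SE 0.35), which did not pass after adjustment (edgeR adjusted p = 0.998) and was 0.52 without antigen p23 replicate 1. The ZIP11 match HPB47_024544 had the smallest p of the list for antigen p23 over the GFP control. It stood at 19.3 ± 8.18 CPM with antigen p23 silenced, against 54.0 ± 50.4 CPM in the GFP control, where the SD was close to the mean. Its log2 fold change was −1.49 (SE 0.67, edgeR adjusted p = 0.964), and −0.93 with antigen p23 replicate 3 alone. The study listed HPB47_024544 among the transmembrane transport genes downregulated with antigen p23 silenced. In the fits made here it passed with neither edgeR nor DESeq2. The melanotransferrin match HPB47_002620, a membrane-bound relative of the iron carrier transferrin, had 31.1 ± 5.13 CPM with antigen p23 silenced, against 46.4 ± 11.8 CPM in the GFP control (log2 fold change −0.60, SE 0.39, edgeR adjusted p = 0.964). No gene of the table carried the ferroportin domain of the cellular iron exporter.

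The list for iron-sulfur cluster assembly, the main mitochondrial use of iron beside heme, held 12 genes. Of these, 4 carry the LYR domain rather than a match to an assembly protein, among them the NADH dehydrogenase subunit match HPB47_023440. They are included in the counts and medians of this list. With antigen p23 silenced, 9 were tested against the GFP control, 5 positive and 4 negative with a median of 0.09. With metalloprotease silenced, 11 were tested, 9 positive and 2 negative with a median of 0.21, and between the knockdowns 5 were positive and 5 negative with a median of 0.03. With antigen p23 replicate 3 alone the medians turned to −0.05 over the GFP control and −0.15 over metalloprotease. The scaffold protein NFU1 match HPB47_008706 had 304 ± 64.6 CPM in the antigen p23 group, 252 ± 35.4 CPM in the metalloprotease group and 224 ± 7.84 CPM in the GFP control (SD, n = 3 each), with a log2 fold change of 0.43 for antigen p23 over the GFP control (SE 0.28, edgeR adjusted p = 0.964), which was 0.04 with antigen p23 replicate 3 alone. The cysteine desulfurase match HPB47_023347, which supplies the sulfur, had 217 ± 32.6, 304 ± 56.0 and 263 ± 19.7 CPM in the antigen p23, metalloprotease and GFP control groups. The frataxin match HPB47_027023, an iron-binding helper of this assembly, averaged 1.31 ± 1.27, 1.90 ± 0.784 and 3.45 ± 1.45 CPM in the antigen p23, metalloprotease and GFP control groups and was too low to be tested with antigen p23 silenced.

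The heme list held 13 genes, and 7 of the 13 carry the cytochrome b5-like heme or steroid binding domain rather than a role in heme synthesis. Against the GFP control, 4 were positive and 3 negative with antigen p23 silenced (median 0.03), and 3 were positive and 5 negative with metalloprotease silenced (median −0.11). Between the knockdowns 4 were positive and 4 negative with a median of 0.03. With antigen p23 replicate 3 alone the medians were −0.40 over the GFP control and −0.07 over metalloprotease. The match to feline leukemia virus subgroup C receptor-related protein 2 (FLVCR2), HPB47_005396, had the smallest p of the list. It had 15.1 ± 9.90 CPM in the metalloprotease group and 38.0 ± 20.5 CPM in the GFP control (log2 fold change −1.32, SE 0.59, edgeR adjusted p = 1.00). The match to coproporphyrinogen oxidase, a late enzyme of heme synthesis, was HPB47_004893, with 54.5 ± 22.4, 83.0 ± 33.3 and 55.8 ± 30.5 CPM in the antigen p23, metalloprotease and GFP control groups. No gene carried the heme oxygenase domain, the enzyme that frees iron from heme in other animals.

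Vitellogenin-type proteins bind heme and lipid in ticks and are the bulk of yolk protein. Of 12 genes in this list, 5 were tested with antigen p23 silenced against the GFP control, 1 positive and 4 negative with a median of −0.47. The positive gene was HPB47_010799 (log2 fold change 0.32, SE 0.37), which matched a microsomal triglyceride transfer protein and not a vitellogenin. HPB47_020504, next in abundance to HPB47_012779 with a mean of 18115 CPM, matched an apolipophorin. The summed level of the list is therefore not a measure of yolk alone. With metalloprotease silenced 6 were tested and all 6 were negative with a median of −0.25, and between the knockdowns 2 were positive and 4 negative with a median of −0.05. With antigen p23 replicate 3 alone the medians were −0.17 over the GFP control and 0.08 over metalloprotease. The summed level of the 12 genes ran from 32791 to 60436 CPM in the antigen p23 libraries, from 26196 to 93471 CPM in the metalloprotease libraries and from 23465 to 88071 CPM in the GFP control libraries. HPB47_012779 alone had 29759 ± 8089.7 CPM with antigen p23 silenced, against 41268 ± 22891 CPM in the GFP control (log2 fold change −0.47, SE 0.47, edgeR adjusted p = 0.964, and −0.17 with antigen p23 replicate 3 alone).

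The last list held the other di-iron enzymes that share the ferritin fold. Both of its genes were tested. The ribonucleotide reductase small subunit match HPB47_012769, which makes DNA precursors, had 94.8 ± 11.0, 67.8 ± 41.5 and 69.2 ± 24.9 CPM in the antigen p23, metalloprotease and GFP control groups (SD, n = 3 each). The 5-demethoxyubiquinone hydroxylase match HPB47_021531, of ubiquinone synthesis, had 76.3 ± 24.5, 86.0 ± 16.8 and 96.6 ± 14.9 CPM in the same groups. Against the GFP control with antigen p23 silenced, their log2 fold changes were 0.45 (SE 0.36) and −0.35 (SE 0.36), both with an edgeR adjusted p of 0.964 and of unlike sign. With antigen p23 replicate 3 alone they were 0.61 and −0.08.

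**Figure D5:**
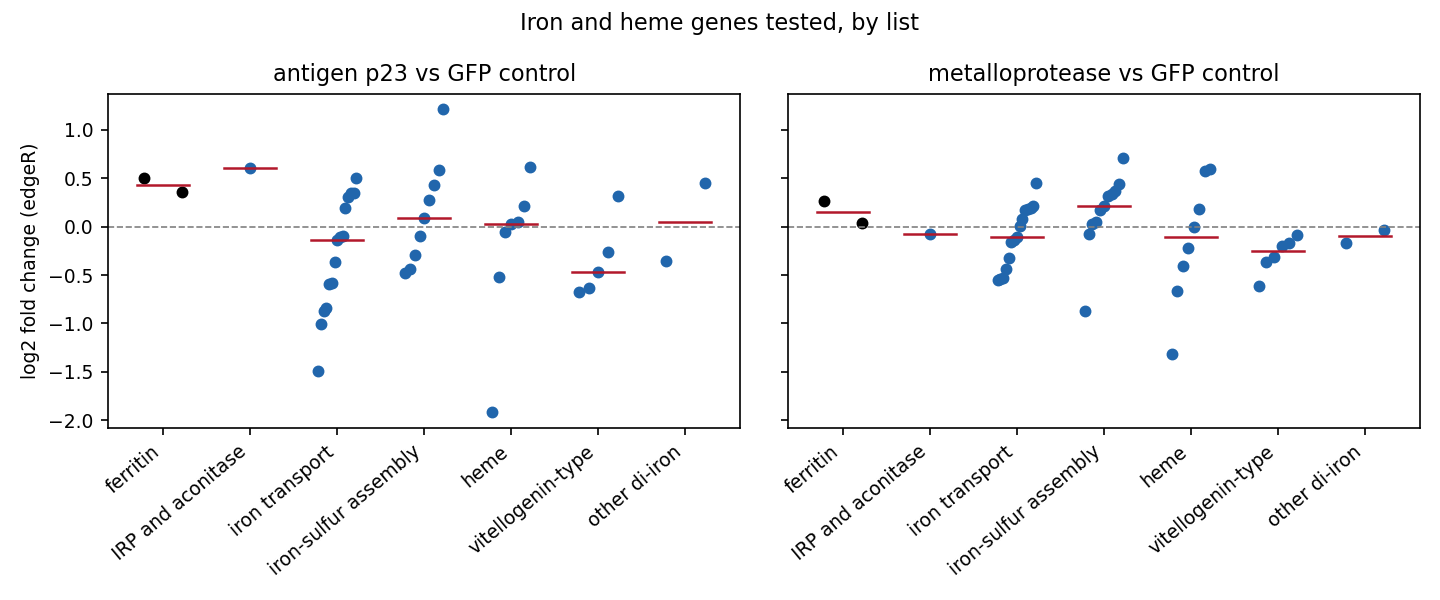
Log2 fold change by edgeR (vertical axis) of each tested gene of the ferritin genes (black) and the 6 iron and heme lists (blue), with the median of each list as a red line, for antigen p23 (left) and metalloprotease (right) over the GFP control. The ferritin genes lie at 0.50 and 0.35 on the left and at 0.26 and 0.04 on the right, and no gene shown passed the adjusted threshold.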

How the data were processed

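Total RNA was extracted from pooled tick midguts, and poly-A selected RNA was sequenced as 9 paired-end libraries. The authors cleaned the reads with their own Perl scripts, mapped them with Bowtie2 2.5.3 (assembly BIME_Iper_1.3 of I. persulcatus) and summed them over genes with featureCounts. The deposited table gives these raw counts as whole numbers for 28510 genes, not normalized. How strand and reads with several positions were treated is not given in the sources used here. Similar genes may therefore share reads, and reads of I. ricinus that differ from I. persulcatus may be lost. The table held no per-sample column that was left unused (0). Gene names are the table's Swiss-Prot matches and Pfam domains. Gene lengths are close to coding lengths, with 97.9% of them multiples of 3.

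Each comparison used its 6 libraries in R 4.3.3 with edgeR 4.0.16 (filterByExpr, TMM, robust quasi-likelihood F test, no term but the group). Adjustment was over all genes tested by the Benjamini-Hochberg method, with a threshold of 0.05, and SEs come from the F statistic. The pools of a group are separate, so p values measure the spread between pools. No library was a copy of another. The code was tested on simulated data. Correlations used log2 CPM with a prior count of 2.

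Alternatives were DESeq2 1.42.0, its size factors, library totals, a fit with the replicate number as a block, dispersions without the robust option, 1 fit over all 9 libraries, a minimum of 10 counts in every library, no filter and leaving out each library. The fit with antigen p23 replicate 3 alone, and the alternatives of the iron and heme lists, were chosen after seeing the data.

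Ferritin genes were all genes with the ferritin-like domain. Of each iron list, up to 3 genes with the highest mean CPM and up to 2 with the smallest p per comparison could be named, and the likeness search names the 3 genes of highest r. The members and lists were chosen with earlier results of these data known. Marker lists for neurons, hemocytes and cuticle gave summed levels of 440 to 726, 30.2 to 78.6 and 325 to 2313 CPM over the 9 libraries.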

Additional observations from a re-analysis of the deposited data

How the results depend on the processing

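The ferritin genes called stayed at 0 under all 15, 14 and 15 alternatives of the antigen p23 against GFP control, metalloprotease against GFP control and antigen p23 against metalloprotease comparisons. The listed iron and heme genes called were 0 under each of them too. The log2 fold change of HPB47_026848 stayed positive in each, between 0.26 and 0.62, between 0.06 (without metalloprotease replicate 3) and 0.41 (without metalloprotease replicate 1) and between 0.04 and 0.42. That of HPB47_028185 ran from 0.09 to 0.65 and from 0.06 to 0.45 for antigen p23 against GFP control and against metalloprotease. For metalloprotease against GFP control it turned negative when 1 library was left out (range −0.23 to 0.35, with −0.12 without metalloprotease replicate 3 and −0.23 without GFP control replicate 2). No group mean of a ferritin gene moved by as much as 1 SD under another scaling. With 3 libraries per group, leaving 1 out cannot move a mean that far, so the means without 1 library decide nothing here.

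Over all genes, antigen p23 against GFP control gave 0 calls with edgeR, 5 without the filter and 6 with DESeq2. Antigen p23 against metalloprotease gave 0, but 16 without the filter, 1 with at least 10 counts in every library, 21 with DESeq2 and 1 with the replicate block. No ferritin gene was among them, and the cause of these differences was not tested. The sources used here do not say whether the replicate numbers pair the pools. Same-numbered deviations from the group means correlated between −0.47 and 0.10. Differently numbered pools were not compared, so these values cannot settle it. With library totals in place of TMM, the genes with a positive and a negative log2 fold change numbered 1813 and 4568 instead of 2805 and 3576 for antigen p23 against GFP control, and 1908 and 4475 instead of 2862 and 3521 for antigen p23 against metalloprotease, where the median of all genes moved by −0.21. With 3 pools per group and SEs of 0.28 to 0.37 on the log2 scale, the spread between pools limits what could be detected for ferritin.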
